A study of Rattus norvegicus with 6 samples.

Results

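Hox genes were examined in RNA-seq libraries of rat lumbar spinal cord as a readout of the dissected segment and of its stability in bone cancer pain (BCP). Members were the rows of the deposited gene table whose symbol is Hox, a cluster letter from a to d and a paralog number, and 37 of 30957 rows met this rule. Of these, 24 had at least 1 count in a library and 13 were listed at 0 in all 6 libraries. All 6 samples came from female Wistar rats on day 14 after injection into the medullary cavity of a tibia. The rats of the 3 BCP libraries received live Walker 256 carcinoma cells, a rat breast cancer line syngeneic to Wistar, and the sham-operated rats of the other 3 libraries received heat-killed cells of the same line, so that the surgery and the injected material were shared by both groups. The tissue was the lumbar enlargement on the side of the injection, split lengthwise and freed of meninges, and each library held RNA of the whole dissected tissue.

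Hox genes encode homeodomain transcription factors that are laid out in clusters, HoxA to HoxD. Within a cluster, low paralog numbers lie at the 3' end and are used in the hindbrain and neck, and successively higher numbers at the 5' end are used further towards the tail. In the spinal cord, the middle paralogs are known for cervical and thoracic columns, the next ones for the lumbar cord and the last ones for sacral and tail levels, and adult neurons keep much of this pattern.

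The gene table held 11779485 to 15004290 counts per library, and the Hox rows took 0.0365% to 0.0436% of them. Levels of different genes were compared as the authors' FPKM, fragments per kilobase of transcript scaled to library depth, and conditions were compared on the counts. The labels do not say whether the libraries of a group came from separate rats, so that p-values measure the spread between these libraries, which may be partly technical. Which counter was run, whether it used strand and what it did with reads that fit several places were not given in the sources used here. Hox genes lie close together and have similar homeobox stretches, and reads that more than 1 of them could give cannot be assigned with certainty.

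The highest Hox levels were those of paralogs 8 to 10. Hoxb8 was the highest Hox gene in every library, with 54.3, 50.9 and 61.4 FPKM in the 3 sham libraries and 52.5, 46.8 and 45.3 FPKM in the 3 BCP libraries. Hoxc10, a driver of lumbar motor neuron identity, was second in every library, with 31.9, 35.8 and 38.4 FPKM in sham and 28.9, 30.8 and 26.6 FPKM in BCP. Hoxb9 came next in every library, with 24.7, 23.5 and 28.9 FPKM in sham and 24.9, 23.5 and 26.3 FPKM in BCP. On this scale the mean of Hoxb8 over the 6 libraries exceeded 91.1% of all 14908 tested genes, and that of Hoxc10 exceeded 83.6%. The tested Hox genes were otherwise of ordinary abundance, with a median mean of 10.46 FPKM against 9.76 FPKM for all tested genes.

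**Figure D1:**
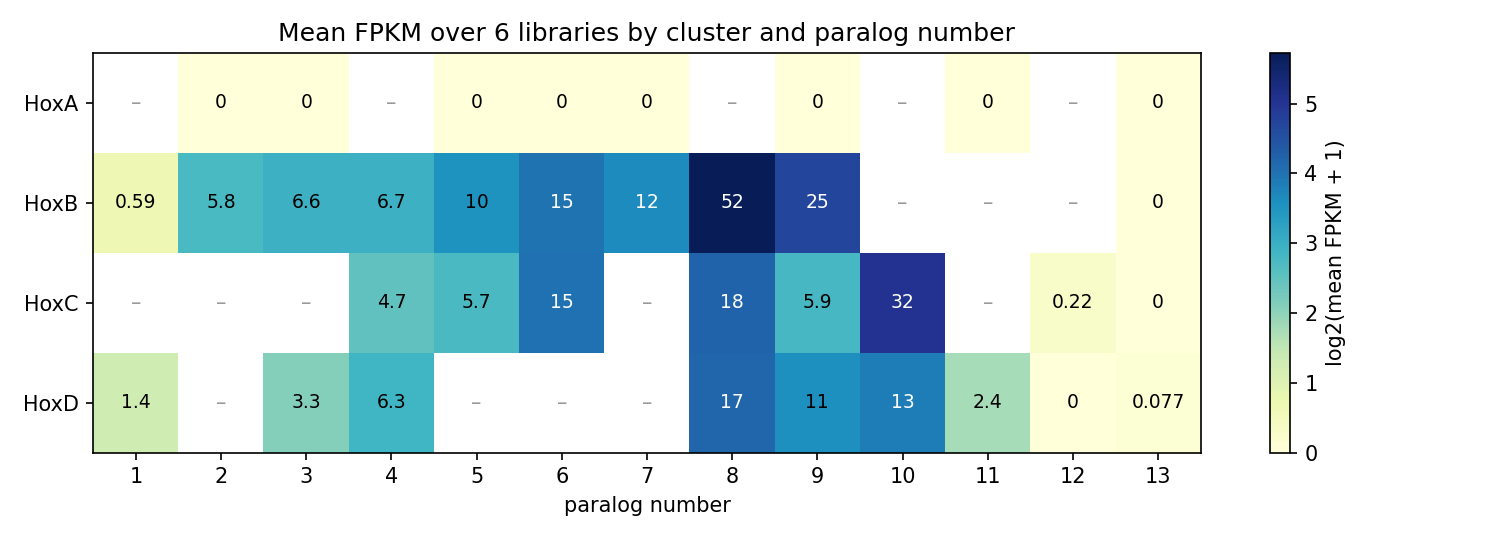
Mean FPKM over the 6 libraries for each cluster (rows) and paralog number (columns), coloured on a log2(FPKM + 1) scale. A dash marks a combination with no row, and the highest cell is Hoxb8 at 51.9 FPKM, while all HoxA cells stand at 0.

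The next genes in order overlapped in range. Hoxc8 measured 16.4, 17.7 and 19.8 FPKM in sham and 19.1, 15.7 and 16.9 FPKM in BCP, and Hoxd8 measured 18.3, 15.4 and 18.4 FPKM in sham and 17.3, 16.3 and 15.8 FPKM in BCP. Hoxc6 measured 13.4, 14.4 and 17.3 FPKM in sham and 14.9, 14.3 and 16.7 FPKM in BCP. Hoxb6 had the widest spread of this group, with 18.6, 14.3 and 16.5 FPKM in sham and 10.6, 11.5 and 17.3 FPKM in BCP. Across libraries the ranges of these 4 genes overlapped, although Hoxc8 exceeded Hoxc6 within every library. Among the genes of paralog 8, Hoxb8 stood apart, at 2.68 to 3.32 times Hoxc8 and at 2.86 to 3.33 times Hoxd8 within each library.

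Paralogs 9 and 10 were measured in more than 1 cluster. Hoxd10, which acts with Hoxc10 in lumbar motor neurons, measured 12.2, 13.8 and 15.9 FPKM in sham and 12.06, 14.06 and 12.996 FPKM in BCP, and Hoxc10 stood at 2.05 to 2.61 times Hoxd10 within each library. Hoxd9 measured 12.8, 11.3 and 11.6 FPKM in sham and 10.7, 10.7 and 9.47 FPKM in BCP. Hoxc9, known for thoracic identity, was lower than both other measured genes of paralog 9 in every library, at 4.74 to 6.86 FPKM. Hoxb9 was 3.42 to 5.20 times Hoxc9, and Hoxc10 was 4.64 to 6.84 times Hoxc9.

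The middle of the HoxB cluster completed the 12 highest genes. Hoxb7 measured 10.2, 8.97 and 11.6 FPKM in sham and 12.9, 13.2 and 12.6 FPKM in BCP, and these groups did not overlap. Hoxb5 measured 10.1, 11.4 and 11.2 FPKM in sham and 11.3, 9.38 and 9.40 FPKM in BCP. Hoxb4 measured 5.47, 6.46 and 6.54 FPKM in sham and 6.36, 8.69 and 6.74 FPKM in BCP. Both Hoxb5 and Hoxb4 overlapped between groups. The other genes with low paralog numbers had group means of 1.13 to 7.02 FPKM for Hoxb2, Hoxb3, Hoxc4, Hoxc5, Hoxd1, Hoxd3 and Hoxd4, while Hoxb1, a hindbrain gene, had 2 to 14 counts and a mean of 0.590 FPKM.

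**Figure D2:**
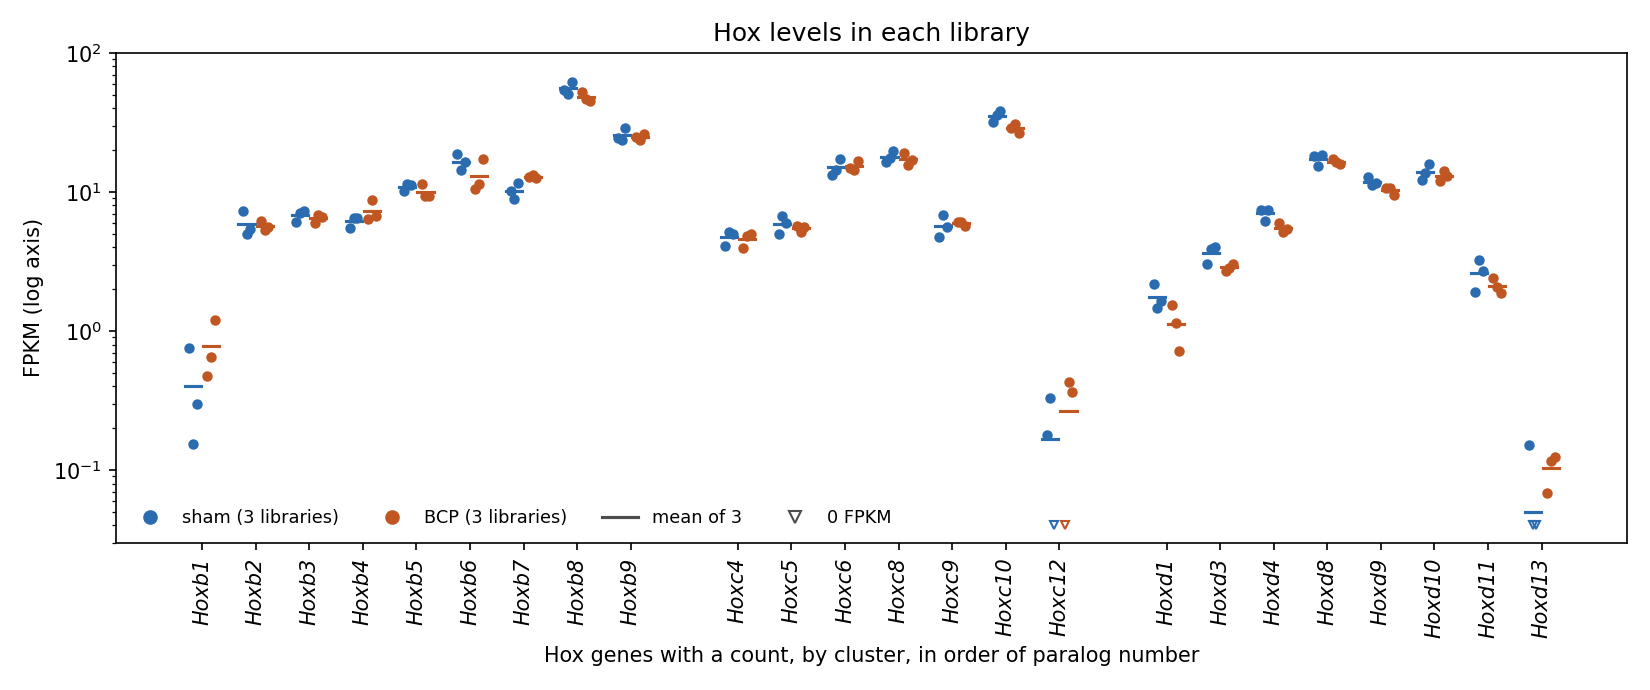
FPKM (log axis) of the 24 Hox genes with a count, one point per library, with sham in blue and BCP in orange, and lines for the mean of 3. Open triangles mark libraries at 0 FPKM. Levels are highest for Hoxb8, Hoxc10 and Hoxb9, and Hoxc9 lies below both Hoxc8 and Hoxc10. Hoxd11, the only gene of paralog 11 shown, lies below Hoxd8, Hoxd9 and Hoxd10.

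HoxB, HoxC and HoxD each had a border at the 5' end. In HoxB, the last gene at or above 0.1 FPKM was Hoxb9, with a mean of 25.3 FPKM, and the next row, Hoxb13, was at 0 in all 6 libraries. In HoxC, Hoxc12 had 2, 4 and 0 counts in sham and 0, 5 and 4 counts in BCP, with a mean of 0.217 FPKM, and Hoxc13 was at 0 in all libraries. In HoxD, the fall was stepwise. Hoxd11, used at the caudal end of the lumbar cord, measured 1.90, 3.23 and 2.71 FPKM in sham and 2.42, 2.07 and 1.88 FPKM in BCP, and Hoxd10 exceeded it by 4.27 to 6.91 times within each library. Hoxd12 was at 0 in all 6 libraries, and Hoxd13, the most 5' gene, had 5, 0 and 0 counts in sham and 2, 4 and 4 counts in BCP. A count of 0 allows up to 3 counts, or 0.2 to 0.255 CPM (counts scaled to the library total) depending on the library, and this limit covers counting error only. Hoxc11 has no row under its own symbol, and a row described as a Hox-C11-like homeobox protein on chromosome 7, which the rule did not take in, had 22 to 43 counts and a mean of 2.52 FPKM. Hoxc10 exceeded that row by 9.02 to 15.0 times.

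Sequences upstream of the genes on either side of the HoxD border are shown because the 3 neighbours lie within one cluster and differ from 13.5 FPKM to 0. They are the 250 bases before the RefSeq start of each gene in assembly GRCr8, plus strand, a later build than the Rnor_6.0 of the deposited files. Capitals mark each CG dinucleotide.
Hoxd10, chr3:80001697-80001946: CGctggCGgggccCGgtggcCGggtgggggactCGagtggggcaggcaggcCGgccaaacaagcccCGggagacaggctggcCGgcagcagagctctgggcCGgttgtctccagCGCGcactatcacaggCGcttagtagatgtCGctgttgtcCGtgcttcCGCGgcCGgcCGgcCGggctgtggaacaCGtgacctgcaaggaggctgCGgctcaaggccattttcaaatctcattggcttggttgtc
Hoxd11, chr3:79992144-79992393: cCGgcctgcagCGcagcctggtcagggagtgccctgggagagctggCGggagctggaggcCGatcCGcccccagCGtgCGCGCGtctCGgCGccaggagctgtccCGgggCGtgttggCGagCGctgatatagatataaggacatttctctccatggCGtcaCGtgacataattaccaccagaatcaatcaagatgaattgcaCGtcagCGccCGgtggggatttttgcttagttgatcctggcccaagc
Hoxd12, chr3:79984856-79985105: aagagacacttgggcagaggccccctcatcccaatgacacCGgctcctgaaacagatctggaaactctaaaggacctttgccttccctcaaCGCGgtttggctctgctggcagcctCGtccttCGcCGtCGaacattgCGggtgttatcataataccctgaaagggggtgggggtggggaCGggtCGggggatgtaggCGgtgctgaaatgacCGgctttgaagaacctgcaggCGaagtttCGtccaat
The Hoxd10 window held 21 CG dinucleotides, the Hoxd11 window 20 and the Hoxd12 window 14, against a median of 5 over all 33469 promoters of the table. Hoxd13, which had almost no counts, held 30. CG content was therefore high on both sides of the border. Promoters were found for 18 of the 35 distinct Hox symbols of the rule, and 21 Hox promoters in all, HoxA included, had a median of 20 CG, which 16.7% of all promoters reached. The motif TATAAA, searched on both strands, was present in 4 of the 21 Hox windows and in 12.9% of all promoters. TGATTNAT, a composite motif of Hox and Pbx proteins, was present on either strand in 2 of the 21, Hoxd11 and Hoxa2, and in 2.82% of all promoters. Neither motif overlaps the other as spelled here, and a match describes letters only.

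Summed by paralog number, the Hox FPKM of every library peaked at paralog 8. Hoxb8 gave most of this peak, with means of 55.6 of 90.9 FPKM in sham and 48.2 of 81.9 FPKM in BCP. A sum also depends on how many genes of a paralog number were measured. Paralogs 8 to 10 together held 64.6%, 64.9% and 66.0% of the summed Hox FPKM in sham and 65.3%, 64.1% and 61.8% in BCP. Paralogs 4 to 7 held 27.4%, 27.3% and 26.9% in sham and 27.3%, 28.3% and 30.6% in BCP. Paralogs 1 to 3 held 6.16% to 7.17%, and paralogs 11 to 13 held 0.822% to 1.32%. This last share leaves out the Hox-C11-like row, whose mean of 2.52 FPKM stood beside 2.37 FPKM for Hoxd11, so it may be too low. The groups overlapped in each of these blocks, with BCP library 3 farthest from sham in paralogs 4 to 7 and 8 to 10. The mean paralog number weighted by FPKM was 7.41, 7.50 and 7.52 in sham and 7.45, 7.46 and 7.38 in BCP, a difference of -0.043 between group means against SDs of 0.057 and 0.048 (n = 3 each). The difference depended on single libraries, at -0.076 without sham library 1, -0.022 without sham library 3 and -0.016 without BCP library 3, and the difference in the share of paralogs 8 to 10, -1.42 percentage points, was -2.21 without BCP library 1 and -0.453 without BCP library 3. These shares rest on HoxB, HoxC and HoxD alone, and they describe a profile without locating a segment, since no library of another segment was included.

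**Figure D3:**
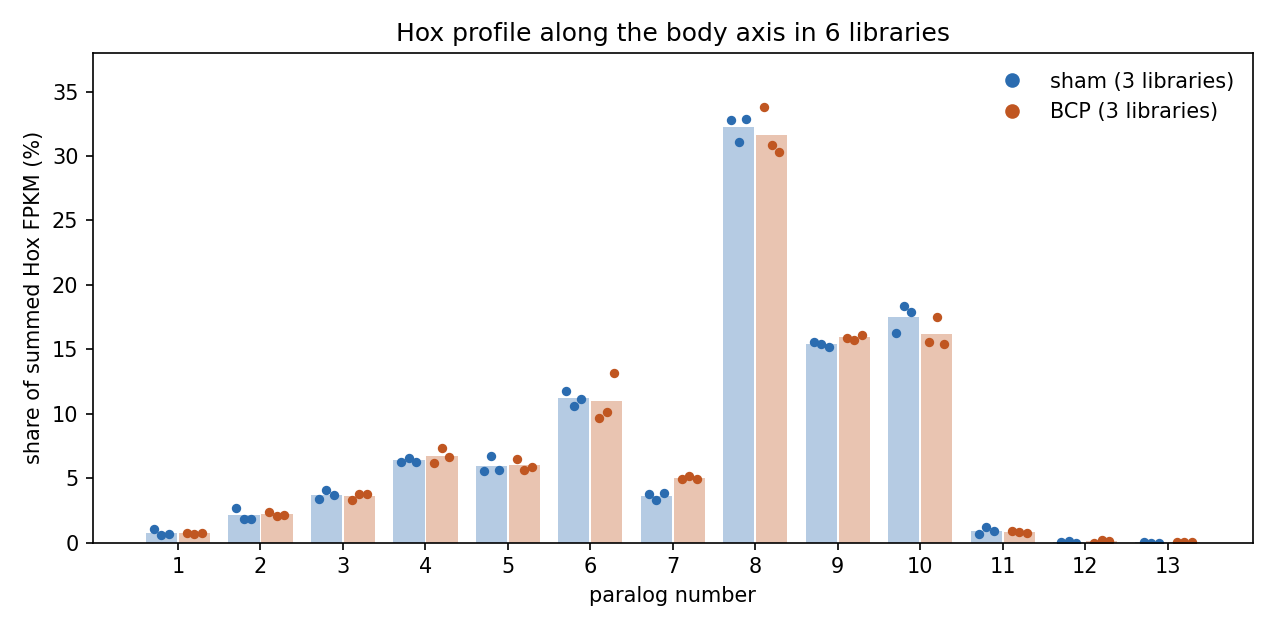
Share of the summed Hox FPKM (percent) held by each paralog number, with bars for group means and one point per library (sham blue, BCP orange). Paralog 8, mostly Hoxb8, holds 30.3% to 33.8% in every library. Paralogs 11 to 13 hold at most 1.32% together, without the Hox-C11-like row.

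Shares of single paralog numbers overlapped between groups with 2 exceptions. Paralog 10 held 17.5% ± 1.11 (SD, n = 3) in sham and 16.2% ± 1.18 in BCP, and the groups overlapped. Paralog 7, which is Hoxb7 alone once the rows at 0 are set aside, held 3.63% ± 0.274 in sham and 5.00% ± 0.158 in BCP, and paralog 9 held 15.4% ± 0.171 in sham and 15.9% ± 0.192 in BCP. The BCP libraries lay above the sham libraries for paralogs 7 and 9 and overlapped with them for all 11 others. A share also depends on the other paralogs of its library. The summed FPKM of paralog 9 had a lower mean in BCP, 41.2 ± 0.789 against 43.3 ± 2.45 in sham (SD, n = 3 each). That of paralog 7 was 12.9 ± 0.323 in BCP and 10.2 ± 1.32 in sham. Among single genes, CPM lay above sham in all BCP libraries for 21.7% of all tested genes.

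The HoxA cluster could not be read from this table. All 10 HoxA rows were at 0 in all 6 libraries, 9 of them on chromosome 4 and Hoxa13 on an unplaced scaffold, and Hoxa5 and Hoxa11 were listed in 2 rows each. The 9 rows on chromosome 4 lay in a run of 22 consecutive rows at 0, at chr4:82069682-82486214 of Rnor_6.0, a stretch of 417 kb that also held 5 rows described as Hox-like. Its neighbours were counted, with 400 to 920 counts for Skap2 on one side and 1090 to 1451 for Hibadh on the other. Rows at 0 were common, with 33.3% of the table, but of 4489 such runs on the chromosomes only 23 were at least that long. All 13 rows of the Hoxa13 scaffold were at 0, and no lncRNA transcript was listed between Skap2 and Hibadh. RefSeq lists 11 HoxA genes once each on chromosome 4 of GRCr8. How the authors treated reads that fit more than 1 place was not tested, and the zeros of the HoxA rows are given as listed and not as absence of expression.

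**Figure D4:**
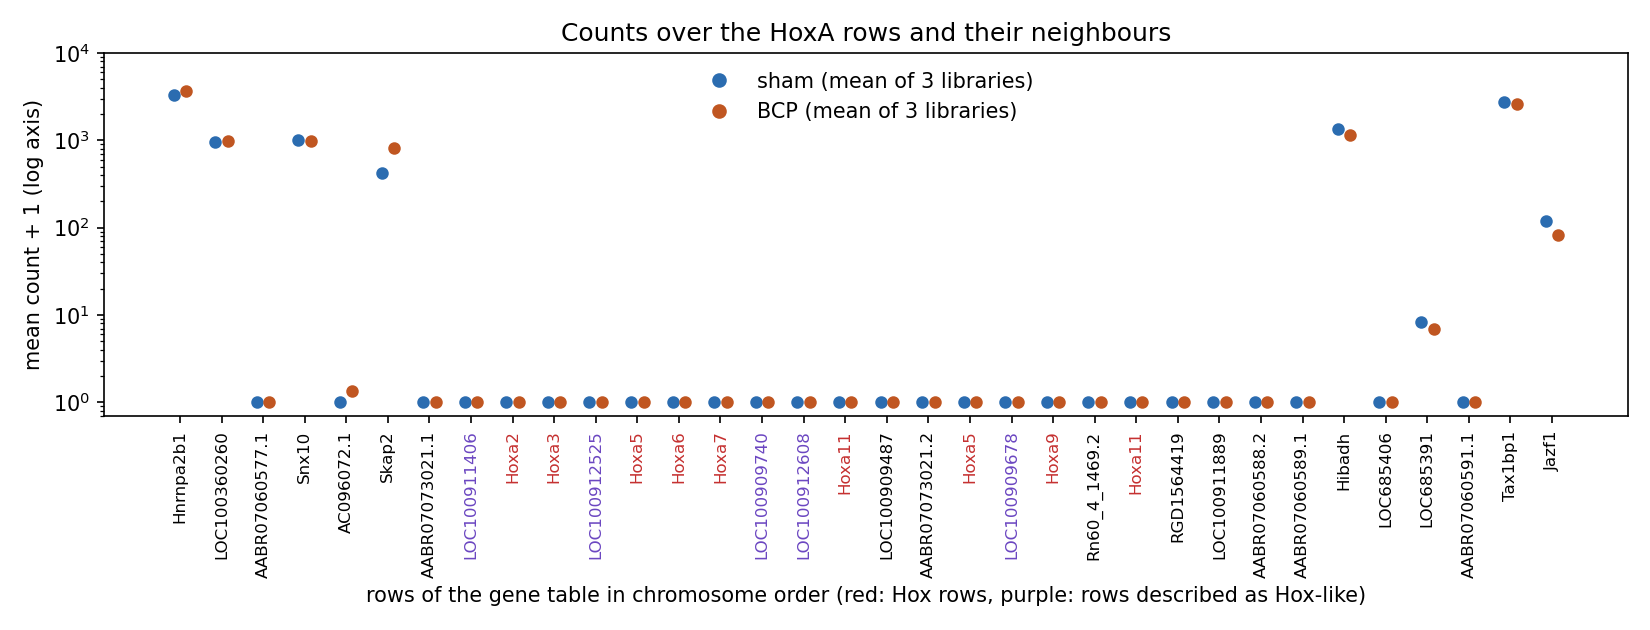
Mean count + 1 (log axis) in sham (blue) and BCP (orange) for rows of the gene table in chromosome order around the HoxA rows. The 22 rows between Skap2 and Hibadh stand at a count of 0, and those of Skap2 and Hibadh stand at 423 to 1351.

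Comparison of BCP with sham asked whether the Hox code of the segment was the same in both groups. No Hox gene passed the 2-fold threshold in either direction (0 of 21 tested, by edgeR's quasi-likelihood test with Benjamini-Hochberg adjusted p under 0.05 and an absolute log2 fold change, log2FC, over 1), against 6.45% of all tested genes. Of all tested genes, 946 passed as higher and 16 as lower in BCP. Among only 21 genes, a count of 0 is near these shares and is not read as particular to Hox genes. DESeq2 and limma on log2 FPKM also gave 0 Hox genes. Without the fold threshold, 3 of 21 were down-regulated at adjusted p under 0.05, against 12.1% of all tested genes, and 0 were up-regulated, against 15.8%. An unadjusted p under 0.05 was found for 8 tested Hox genes, 7 lower and 1 higher in BCP. The share of all tested genes at that level was not taken, so this count is not read as particular to Hox genes. In tissue RNA, fewer cells of a type and less RNA per cell cannot be told apart.

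Hoxc10 (chr7:144577465-144582622 in Rnor_6.0) was down-regulated in BCP. It had 768, 936 and 1037 counts in sham and 614, 764 and 622 in BCP, and its FPKM, given above, was lower in all 3 BCP libraries than in any sham library. Its log2FC was -0.34 (SE 0.077, 95% confidence interval -0.50 to -0.18, edgeR adjusted p = 0.00217), that is, 20.9% lower. This was the one Hox gene whose adjusted p stayed under 0.05 in all 15 alternative settings, from 0.000894 to 0.0457.

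Hoxd4 (chr3:61634005-61651056), a gene of the hindbrain and cervical cord, was also down-regulated. It measured 7.41, 6.20 and 7.44 FPKM in sham and 6.02, 5.18 and 5.44 FPKM in BCP, and all 3 BCP libraries lay below sham. Its log2FC was -0.38 (SE 0.114, edgeR adjusted p = 0.0154), or 23.3% lower. Hoxb8 (chr10:84131495-84133246) overlapped between groups, since BCP library 1 exceeded sham library 2 in FPKM, and its log2FC was -0.25 (SE 0.0822, edgeR adjusted p = 0.0302), or 15.7% lower. Neither passed by DESeq2, with nearly unchanged log2FC of -0.38 and -0.24 and adjusted p = 0.0505 for Hoxd4 and 0.0618 for Hoxb8. The limma fits gave adjusted p of 0.0795 and 0.0851 for Hoxd4 and of 0.146 and 0.143 for Hoxb8, and with library size alone as scaling Hoxb8 had 0.0691. Both calls were also lost when 1 of 4 libraries was left out. For Hoxd4 the edgeR adjusted p was then 0.0620 without sham library 1, 0.0658 without sham library 3, 0.0743 without BCP library 2 and 0.0512 without BCP library 3. For Hoxb8 it was 0.0551, 0.189, 0.113 and 0.138 in the same order.

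**Figure D5:**
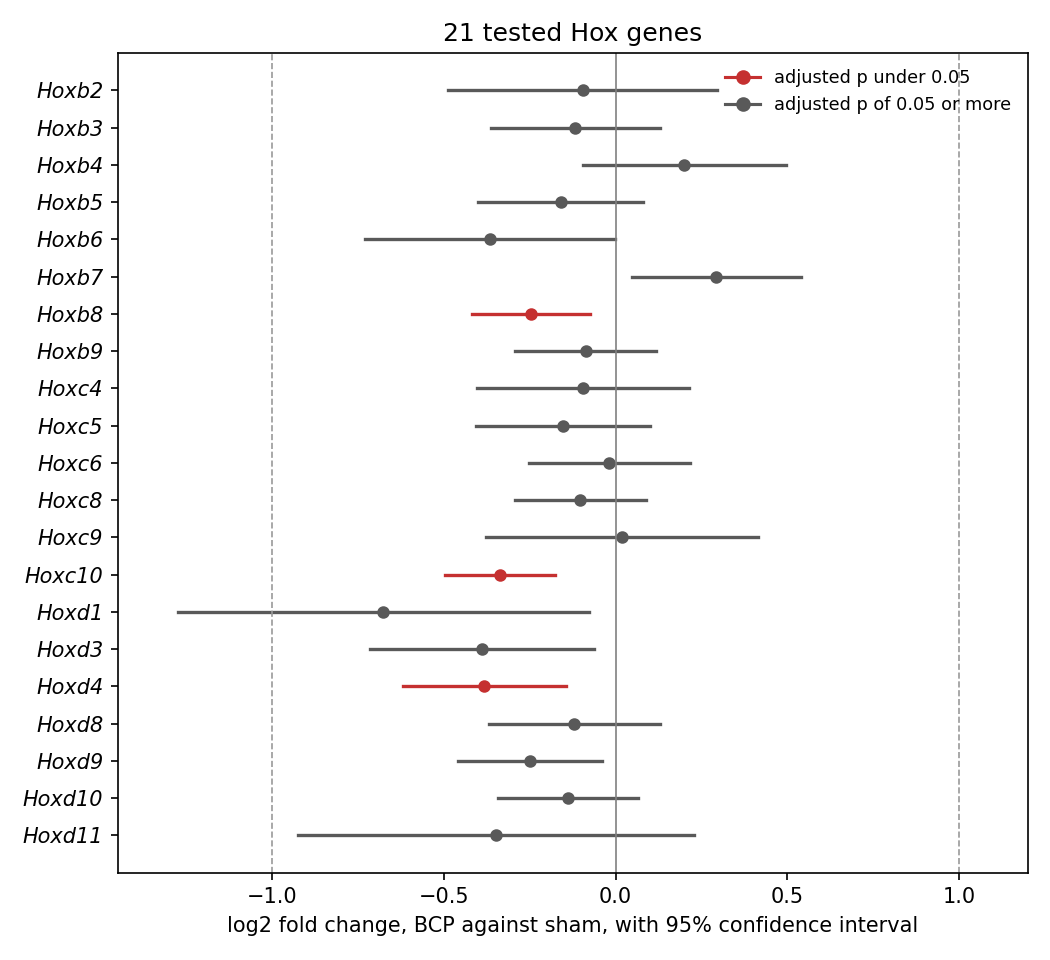
log2 fold change of BCP against sham with its 95% confidence interval for the 21 tested Hox genes, ordered by cluster and paralog number. Dashed lines mark 2-fold, and red marks the 3 genes with an edgeR adjusted p under 0.05, Hoxb8, Hoxc10 and Hoxd4. Points left of 0 (18 of 21) are lower in BCP.

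The other 18 tested genes did not pass the adjusted threshold. Hoxb7 had a log2FC of 0.29 (SE 0.118, edgeR adjusted p = 0.0721), the one estimate above 0 with an unadjusted p under 0.05. Without sham library 3 its log2FC was 0.39 and its adjusted p 0.0324, and with library size alone as scaling the adjusted p was 0.0423. Hoxb7 lies next to Hoxb8 on chromosome 10, and the FPKM of Hoxb8 was 5.30 to 5.68 times that of Hoxb7 in sham and 3.53 to 4.07 times in BCP. Reads of the neighbours were not separated further here.

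In HoxD, all 7 tested genes had estimates below 0, with a median log2FC of -0.35, and in HoxB and HoxC 11 of 14 did, with medians of -0.11 and -0.10. Hoxd1 had the largest estimate, -0.68 (95% confidence interval -1.28 to -0.08, edgeR adjusted p = 0.0881), on 17 to 53 counts, and without BCP library 1 it was -0.94 with an adjusted p of 0.0296. Hoxd3 was at -0.39 (adjusted p = 0.0714) and Hoxd9 at -0.25 (adjusted p = 0.0727), and in both the BCP libraries lay below sham. Hoxd3 passed without sham library 1, at an adjusted p of 0.0328. Hoxb6 was at -0.37 (adjusted p = 0.133), and at -0.61 with an adjusted p of 0.0150 without BCP library 3. Upper-quartile scaling added Hoxd9 and Hoxd3 to the genes under 0.05, 5 in all.

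The interval of 20 of the 21 genes lay within a log2FC of -1 to 1, Hoxd1 being the exception. CPM did not overlap between groups in 5 of 21 genes. In 4 of them, Hoxc10, Hoxd9, Hoxd4 and Hoxd3, BCP lay below sham, against 19.8% of all tested genes, and in 1, Hoxb7, BCP lay above, against 21.7%. Estimates were below 0 in 18 of 21 Hox genes (85.7%) and in 52.3% of all tested genes. The median log2FC was -0.14 over the Hox genes and -0.01 over all tested genes, while the median absolute log2FC was alike, 0.160 and 0.166. The summed Hox FPKM was 271, 270 and 303 in sham and 263, 256 and 257 in BCP.

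Other gene lists were read in the same samples, against the 12.1% of all tested genes that were down-regulated and the 15.8% that were up-regulated at adjusted p under 0.05. Of 12 neuron markers tested, 7 were down-regulated and 0 up-regulated (edgeR adjusted p under 0.05), with a median log2FC of -0.17 and a summed level of 1863 to 1973 FPKM in sham and 1747 to 1877 in BCP. Among them Slc32a1, the vesicular transporter of inhibitory neurons, was at -0.32 and Tubb3, a neuronal tubulin, at -0.25. Snap25, the neuron marker of highest level, did not pass, at -0.06 with an edgeR adjusted p of 0.334. All 9 oligodendrocyte markers tested were down-regulated, with a median of -0.37 and a sum of 12320 to 13860 FPKM in sham and 9257 to 10060 in BCP. Of 8 motor neuron markers tested, 2 were down-regulated, Prph, a neuronal filament, at -0.34 and Slc5a7, the choline transporter, at -0.20, with a median of -0.23 and a sum of 147.7 to 165.9 FPKM in sham and 125.3 to 146.9 in BCP. In the opposite direction, 7 of 10 microglia markers were up-regulated (median 1.43, sum 138 to 184 FPKM in sham and 543 to 685 in BCP), and so were all 8 T cell markers tested (sum 4.07 to 4.69 FPKM in sham and 34.1 to 42.0 in BCP). Much of the T cell sum was Cd4, with means of 2.87 FPKM in sham and 12.7 in BCP. Astrocyte markers had 1 up-regulated and 4 down-regulated of 8 (median -0.09, 4048 to 4149 FPKM in sham and 4179 to 4537 in BCP). The part of these lists in the Hox values was not tested.

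Transcription factors of spinal interneurons gave a list of the same kind of regional identity. Of 9 tested, 1 was down-regulated, a share near the 12.1% of all tested genes, and 0 were up-regulated. It was Lbx1, which specifies dorsal horn neurons, at -0.70 (SE 0.240, edgeR adjusted p = 0.0345). Their median was -0.29, and the summed level was 27.5 to 29.9 FPKM in sham and 23.8 to 25.3 in BCP, without overlap. Pax2, of inhibitory neurons, had the highest level of the list, with 7.70 ± 0.520 FPKM (SD, n = 3) in sham and 6.99 ± 0.481 in BCP, and a log2FC of -0.18 with an adjusted p of 0.289.

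Genes that shape or read the Hox code were measured beside it. The TALE homeodomain proteins, Pbx, Meis and Pknox, bind DNA together with Hox proteins, and 3 of 9 were down-regulated and 0 up-regulated, against 12.1% and 15.8% of all tested genes, with a median of -0.14. Pbx3, the highest of them, fell from 33.0 ± 1.34 to 29.2 ± 1.42 FPKM (SD, n = 3 each), a log2FC of -0.22 with an edgeR adjusted p of 0.00615. Pknox2 was at -0.35 (adjusted p = 0.00618). Pbx2, the second highest, was at 0.10 with an adjusted p of 0.314. The summed TALE level was 103.5 to 105 FPKM in sham and 94.5 to 99.7 in BCP.

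Polycomb proteins keep unused Hox genes silent, and of 23 tested genes 4 were up-regulated and 4 down-regulated, shares near the 15.8% and 12.1% of all tested genes, with a median log2FC of -0.01. The up-regulated genes were Ezh2, Suz12, Eed and Aebp2, with Suz12 at 0.39 (edgeR adjusted p = 0.00132). Of the down-regulated genes, Cbx6, the highest of the list, was at -0.28 (adjusted p = 0.000369), and the others were Cbx7, Ring1 and Ezh1. Apart from Suz12 and Cbx6, these genes were named after their values were seen. Ezh2 went from 3.57 ± 0.0719 to 5.25 ± 0.316 FPKM and its paralog Ezh1 from 28.8 ± 0.525 to 26.7 ± 0.237 FPKM (SD, n = 3 each). Trithorax and MLL genes, which keep Hox genes active, had 1 up-regulated and 3 down-regulated of 13, against the same shares of all tested genes, among them Dot1l at -0.33 and Men1 at -0.26, with a median of 0.03. Caudal factors, Gdf11 and retinoic acid genes, which set Hox boundaries in the embryo, were listed together with Gmnn, which is none of these. Of 14 genes tested, 1 was up-regulated and 1 down-regulated, against the 15.8% and 12.1% of all tested genes. Gmnn was at 0.75 (adjusted p = 0.00502) and Gdf11, a growth factor of trunk and tail levels, at -0.19 (adjusted p = 0.0146), the median was -0.12, and Cdx1, Cdx2 and Cdx4 were at 0 in all libraries.

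Markers of other regions were checked against the labelled tissue. Of 13 forebrain and midbrain factors found, 8 were under 0.1 FPKM, Emx1 among them, and the summed level was 3.98 to 4.18 FPKM in sham and 4.10 to 5.12 in BCP. Of the 5 tested, 1 was up-regulated, against 15.8% of all tested genes. It was Eomes, which T cells and natural killer cells also express, at a log2FC of 5.60. The highest level was that of Neurod6 at 2.45 FPKM. Brainstem and cerebellum genes summed to 0.733 to 1.65 FPKM over the libraries, with 5 of 7 under 0.1 FPKM. Genes of dorsal root ganglion and nerve root summed to 6.13 to 9.29 FPKM in sham and 5.46 to 6.36 in BCP, with the nociceptor channels Scn10a and Scn11a under 0.1 FPKM, and of 6 tested 1 was down-regulated, Trpv1 at -0.70 (edgeR adjusted p = 0.0225). Skeletal muscle genes summed to 7.52 to 11.1 FPKM in sham and 5.27 to 6.88 in BCP. Of 3 tested, 1 was down-regulated past 2-fold, against 16 of all 14908 tested genes. It was Tnnc2, a troponin, at -1.30 (edgeR adjusted p = 0.00114), with mean levels of 5.98 FPKM in sham and 2.50 in BCP. Acta1 was at -0.16 and Myh1 at -0.68 (edgeR adjusted p = 0.672 and 0.0974). Among genes too low to test, Tnnt3 had means of 0.0708 FPKM in sham and 0.850 in BCP, and Mylpf 0.454 and 0.445. The part of these tissues in the Hox values was not tested. Sums in sham and BCP were, for epithelial genes that could mark carcinoma cells, 3.63 to 4.34 and 4.26 to 4.65 FPKM, for endothelial genes 111 to 117 and 111 to 116 FPKM, and for fibroblast genes 28.5 to 36.5 and 33.8 to 44.2 FPKM. Pdgfra was the highest of the fibroblast genes, with means of 15.0 FPKM in sham and 16.5 in BCP, while Col1a2 and Ogn were at 0. That sum is therefore not read as a measure of fibroblasts or meninges. Myeloid genes of the blood summed to 2.42 to 2.68 FPKM in sham and 11.9 to 14.8 in BCP. Much of that sum was Csf3r, with means of 2.17 FPKM in sham and 7.03 in BCP.

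Long noncoding RNAs (lncRNAs) are transcribed within Hox clusters. In the deposited lncRNA table, 34 transcripts lay within the span of a Hox cluster in Rnor_6.0, 18 in HoxB, 9 in HoxC and 7 in HoxD, and 19 of them overlapped a Hox row. Of 22 tested, none had an adjusted p under 0.05 by edgeR's quasi-likelihood test or by DESeq2, against 1.97% of all 12157 tested lncRNAs by edgeR. An unadjusted p under 0.05 was found for 4 of them. The share of all tested lncRNAs at that unadjusted level was not taken, so this count is not read as particular to the clusters. Their median log2FC was -0.14, and 15 of 22 estimates were below 0. The median and the share below 0 over all tested lncRNAs were not taken, so neither value is read as particular to the clusters.

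The transcript with the highest CPM was NONRATT004797.2, which overlaps Hoxb8 at chr10:84132718-84133263. It had 204, 165 and 183 CPM in sham and 125, 148 and 149 in BCP, all BCP libraries below sham, with a log2FC of -0.38 (SE 0.112, edgeR adjusted p = 0.167). The share of all tested lncRNAs whose groups lay apart in this way was not taken. NONRATT004798.2, just beyond Hoxb8, had 143, 146 and 180 CPM in sham and 131, 151 and 150 in BCP, with overlap and a log2FC of -0.12 (adjusted p = 0.736). NONRATT004804.2, over Hoxb6, had 146, 152 and 161 in sham and 153, 129 and 160 in BCP, with overlap and a log2FC of -0.06 (adjusted p = 0.888). The libraries were strand-specific by kit, but without a stated use of strand, reads of an lncRNA and of a Hox gene it overlaps cannot be told apart.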

How the data were processed

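RNA-seq was made from 3 BCP and 3 sham samples, grouped by their GEO labels. Per the labels and the paper's methods, ribosomal RNA was removed, strand-specific libraries were sequenced, and reads were filtered and mapped to Rnor_6.0 with HISAT2 2.0.4, and StringTie 1.3.0 gave expression. The authors deposited raw counts and FPKM per gene and per lncRNA transcript. Replicates were not pooled.

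The counts went into edgeR 4.0.16 (R 4.3.3, filterByExpr, TMM, robust quasi-likelihood fit, Benjamini-Hochberg adjustment over all tested genes or all tested lncRNAs), and a gene was called at an adjusted p under 0.05 and an absolute log2FC over 1, the study's thresholds. The script was tested on simulated data. Alternatives were DESeq2 1.42.0, limma 3.58.1 on log2(FPKM + 0.1) and log2(FPKM + 1), other scalings and filters, a replicate block and each library left out. Values in every library are given for the 12 Hox genes of highest mean FPKM, those with an adjusted p under 0.05 and those at each cluster's 5' border. For other lists, the 2 genes of highest level and the 2 of smallest p may be named, and for cluster lncRNAs the 3 of highest CPM. Members and gene lists were chosen with earlier results of these data known. The biological coefficient of variation was 7.72% for genes and 33.4% for lncRNAs, on 1946315 to 2531114 lncRNA counts per library.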

Additional observations from a re-analysis of the deposited data

How the results depend on the processing

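Of 315 pairs of a tested Hox gene and an alternative setting, 282 kept direction and side of the adjusted threshold, and 11 changed sign. The sign changes were in estimates near 0. With 1 library left out, the log2FC ranged from -0.0952 to 0.164 for Hoxc9, with values below 0 without sham replicate 1 or 3, from -0.0932 to 0.0965 for Hoxc6, above 0 without sham replicate 3 or BCP replicate 2, from -0.209 to 0.0877 for Hoxb2, above 0 without sham replicate 1, from -0.151 to 0.0053 for Hoxb9, above 0 without sham replicate 3, and up to 0.00059 for Hoxc4 without BCP replicate 1. Hoxc9 was at -0.0167 with upper-quartile scaling, and Hoxc6 at 0.0219 with library size only and at 0.0299 and 0.0280 in the limma fits. The 16 other genes kept 1 direction in all 15 settings. No setting moved a Hox gene past 2-fold.

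Without the fold threshold, the count of Hox genes lower in BCP went from 3 to 1 with DESeq2 and with each limma fit and to 5 with upper-quartile scaling, and from 1 to 4 when libraries were left out. The count higher went from 0 to 1 with library size only, and from 0 to 1 when libraries were left out. The Hox median log2FC stayed between -0.19 and -0.09. Leaving out libraries gave 16 to 33 genes called lower (16 with all), 47 to 112 lncRNAs called higher (139 with all) and 8 to 18 called lower (9 with all). Genes called lower numbered 37 without a filter, 6 with at least 10 counts in every library, and 27 and 3 in the limma fits. DESeq2 called 38 lncRNAs lower. Without the fold threshold, 2352 genes were higher and 1805 lower, and 48 lncRNAs lower. The cause of these moves was not tested, beyond the fewer samples, genes or criteria of each setting.

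The weighted mean paralog number over all libraries was 7.45. It was 7.33 weighted by counts, 6.74 by log2(FPKM + 1) and 7.32 without Hoxb8, and the share of paralogs 8 to 10 went from 64.5% to 61.6%, 47.3% and 56.1%. The difference of BCP minus sham in mean paralog number went from -0.043 to 0.011 with log2(FPKM + 1) weights. Adding the Hox-C11-like row, an alternative chosen after seeing the data, moved neither measure beyond the spread between libraries.

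Groups share replicate numbers, but same-numbered libraries did not deviate together (correlations -0.105, 0.044 and -0.035), so the numbers were not taken as a pairing. A replicate block left the counts of Hox genes at 0 and 3 and called 43 lncRNAs higher. Hoxd1 and Hoxd11 rest on 17 to 53 counts per library, and a count of 0, as for Hoxd12, allows up to 3 counts.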
